A study of Mus musculus with 8 samples.

Results

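Endothelial and angiogenesis genes, 10 in number, were followed in mouse hind limb muscle: Vegfa, Kdr, Flt1, Tek, Angpt1, Angpt2, Emcn, Pecam1, Cdh5 and Apln. They were chosen by name for their known roles, at a time when earlier results of these data were known. All 10 had a probe set of their own among the 21212 of the array. The study compared 2 groups of 4 female wild type C57BL/6J mice, whose age the labels give as 7 weeks. In the hind limb unloaded (HU) group the hind limbs were kept off the cage floor for 5 days, a treatment under which muscle atrophies, and the weight bearing (WB) mice walked normally. RNA of the gastrocnemius and plantaris muscles was hybridised to 1 Affymetrix whole-transcript array per RNA sample. The labels call the samples of a group biological replicates. The RNA came from whole muscle, in which fibres, endothelium, fibroblasts and blood cells are mixed. Fewer cells of a type and less RNA per cell cannot be told apart in such samples.

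Vascular endothelial growth factor A, the product of Vegfa, is secreted by muscle fibres and other cells and acts on the endothelium of the capillaries around them. Its main signalling receptor is encoded by Kdr, while the receptor encoded by Flt1 binds it more tightly and signals less, so that it also acts as a trap. Angiopoietin-1 (Angpt1), made mostly by cells around the vessel, activates the receptor Tek and keeps vessels stable, and angiopoietin-2 (Angpt2), made by the endothelium, opposes it in many settings. Apln encodes apelin, a peptide of sprouting endothelium. Emcn (endomucin, a sialomucin of capillaries and veins), Pecam1 (an adhesion molecule at endothelial junctions) and Cdh5 (the cadherin of those junctions) mark endothelial cells. Capillaries of skeletal muscle are known to depend on Vegfa from the fibres.

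The deposited values are log2 expression after robust multi-array analysis (RMA), and every level, difference and median below is on this scale unless given as a fold or a percent. Arrays of the same group correlated at between 0.9962 and 0.9973 and arrays of different groups at between 0.9917 and 0.9936, and no array stood apart. A probe set was called lower or higher at an adjusted p under 0.05 by limma, a linear model that shares information on the spread across probe sets, with adjustment over all of them. By this rule 2324 probe sets (11.0%) were lower and 2715 (12.8%) higher in unloaded muscle, with a median change of all probe sets of 0.04. A negative change was found in 8189 of the 21212 probe sets. Counts in the gene lists below are to be read beside these shares. The shares depend on brightness. Without the dimmest 50% of probe sets 2328 were lower and 2206 higher, with a median change of 0.006. The shares among brighter probe sets were thus larger. Among all probe sets 12.0% had every unloaded value below every weight bearing value, and 15.5% had the reverse. Muscle fibre markers averaged between 12.0 and 12.1 in the unloaded and between 12.2 and 12.3 in the weight bearing arrays, as fits the labelled tissue. All 10 genes lay above 5.17, the level that 95% of 1280 probe sets for olfactory and vomeronasal receptors did not exceed, although brightness also depends on the probes. Nearest to it were Angpt2 (means of 5.57 in weight bearing and 5.63 in unloaded muscle) and Angpt1 in unloaded muscle (5.60). Next came Apln (5.87 in unloaded and 5.95 in weight bearing muscle). The sizes of the changes of these genes are therefore less certain.

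Of the 10 genes, 4 were lower in unloaded muscle and 0 higher (limma). These were Angpt1, Kdr, Vegfa and Emcn, against the 11.0% of all probe sets called lower. That share was larger among brighter probe sets. With the dimmest 50% left out, which removed Angpt1, Angpt2 and Apln, 3 of the 10 genes were lower. Without adjustment of p the counts for all 10 genes were also 4 and 0, and the methods' t-test gave the same. In 5 of the 10 genes all unloaded values lay below all weight bearing values, the fifth being Cdh5, against 12.0% of all probe sets. The median change of the 10 genes was -0.08. Angpt1 fell most, to 45.4% of its weight bearing level, while Kdr, Vegfa and Emcn were at between 72.2% and 77.5%. Flt1, Tek, Angpt2, Pecam1, Cdh5 and Apln were at between 94.3% and 105.6%. Every one of the 4 falls kept its call when each array was left out in turn.

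**Figure D1:**
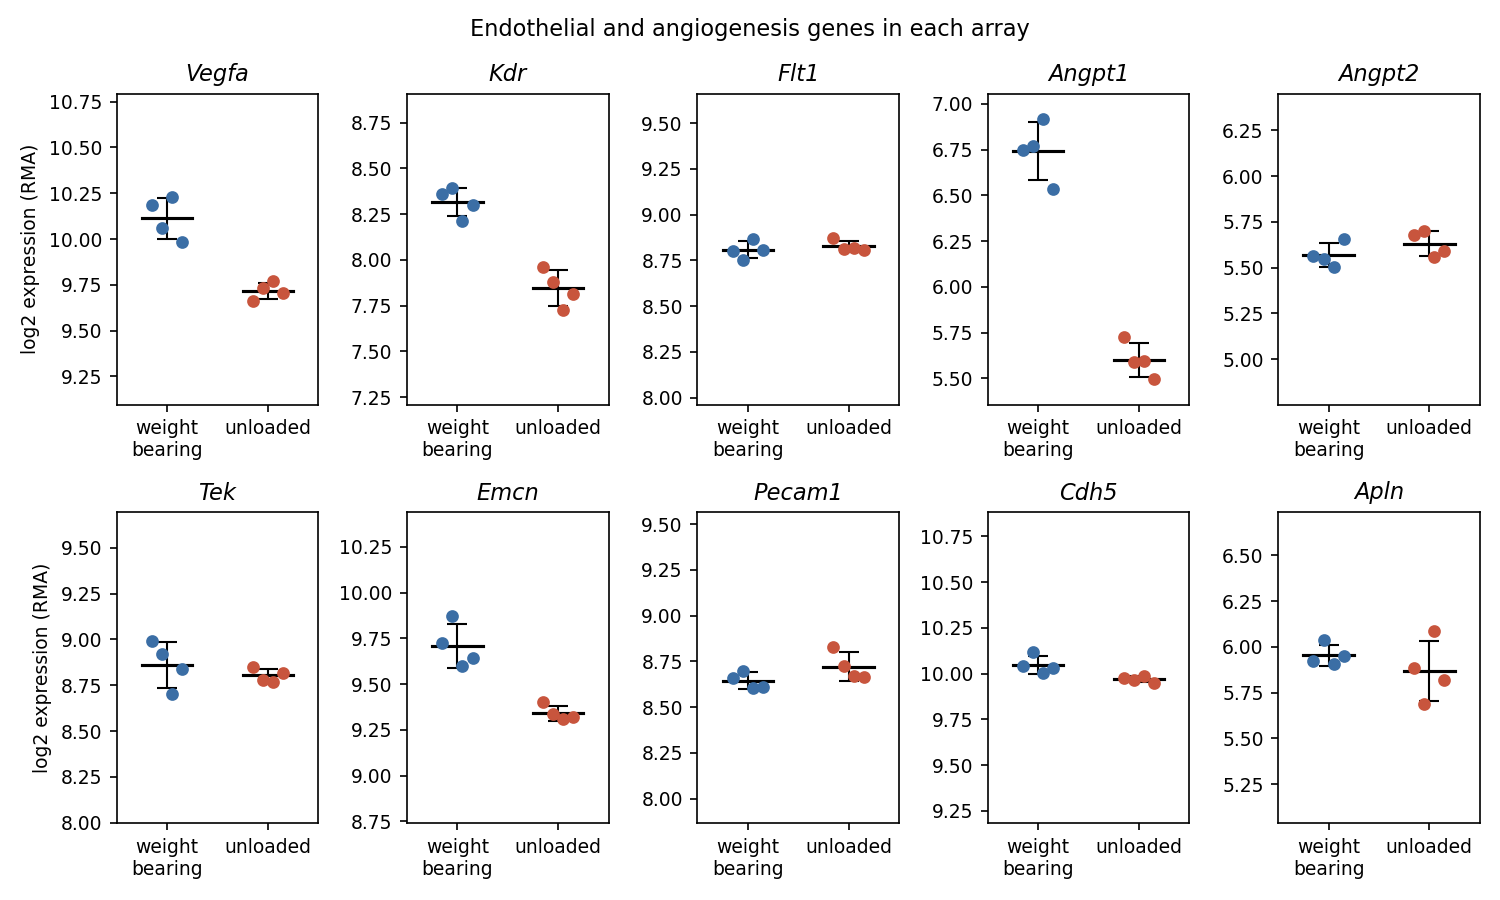
Log2 expression (RMA, vertical axis, with the same span of 1.7 in every panel) of the 10 genes in the 4 weight bearing (blue) and 4 unloaded (red) arrays. Lines are group means and bars 1 SD. The groups do not overlap for Vegfa, Kdr, Angpt1, Emcn and, by a narrow gap, Cdh5.

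The sequences just before the start sites show what the promoters of the VEGF genes and of Emcn contain. They were taken from the RefSeq table of build GRCm38.p6, which held 6 of the 10 genes, and are printed for Vegfa, Kdr and Emcn, which fell, and for Flt1, the VEGF receptor that was not called. Each runs with the gene and ends at the base before its start. Capitals mark matches, on either strand, to the hypoxia response core ACGTG, the ETS core AGGAAG, the GATA motif AGATAA, the Sp1 motif GGGCGG and the binding motif of NF-kB, the factor family the study followed in unloaded muscle. The matches in these 4 sequences did not overlap one another.
Vegfa, chr17:46032378-46032627, minus strand: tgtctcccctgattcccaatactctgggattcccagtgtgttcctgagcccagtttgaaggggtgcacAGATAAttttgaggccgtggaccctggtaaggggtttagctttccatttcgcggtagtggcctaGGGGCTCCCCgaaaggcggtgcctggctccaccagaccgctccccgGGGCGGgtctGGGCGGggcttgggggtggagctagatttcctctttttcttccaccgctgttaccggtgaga
Kdr, chr5:75978456-75978705, minus strand: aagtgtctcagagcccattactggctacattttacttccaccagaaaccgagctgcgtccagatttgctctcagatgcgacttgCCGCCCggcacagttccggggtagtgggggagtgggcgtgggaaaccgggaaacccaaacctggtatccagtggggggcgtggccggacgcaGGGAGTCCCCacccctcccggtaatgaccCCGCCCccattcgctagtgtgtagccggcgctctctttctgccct
Flt1, chr5:147726012-147726261, minus strand: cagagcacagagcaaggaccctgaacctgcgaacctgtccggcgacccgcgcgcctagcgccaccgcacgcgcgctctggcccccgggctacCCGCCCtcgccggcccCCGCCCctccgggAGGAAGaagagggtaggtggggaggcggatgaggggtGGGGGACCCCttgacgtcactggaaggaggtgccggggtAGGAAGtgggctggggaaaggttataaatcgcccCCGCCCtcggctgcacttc
Emcn, chr3:137340828-137341077, plus strand: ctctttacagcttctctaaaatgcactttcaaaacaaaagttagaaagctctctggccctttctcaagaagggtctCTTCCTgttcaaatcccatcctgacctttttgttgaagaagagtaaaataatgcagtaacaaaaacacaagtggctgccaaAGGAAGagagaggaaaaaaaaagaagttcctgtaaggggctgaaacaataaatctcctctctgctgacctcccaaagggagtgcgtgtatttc
The NF-kB motif was found once in each of Vegfa (from -118 to -109 relative to the start), Kdr (-74 to -65) and Flt1 (-92 to -83), and it occurs in 3.9% of the 32851 promoters of the table. It was thus found in the promoters of a receptor that fell and of one that was not called. The matched NF-kB and Sp1 letters are mostly G and C. The stretches of Vegfa, Kdr and Flt1 held 59.2%, 61.6% and 70.4% G and C, against a median of 52.4% for all promoters. The shares of all promoters were not matched for this. The Sp1 motif, in 32.7% of all promoters, had 2 matches in Vegfa, 2 in Kdr and 3 in Flt1. Emcn had none of these, and instead 2 matches to the ETS core, the motif of a factor family active in endothelium, which also had 2 in Flt1 and is in 29.5% of all promoters. Vegfa held the single GATA match, a motif that 3281 of the 32851 promoters hold. None of the 4 stretches of 250 bases held the hypoxia response core, which is in 16.6%. Sequence farther upstream was not searched, so a core there would have been missed. Vegfa has a second annotated start in the table (chr17:46025164-46025413, minus strand, not printed), whose stretch held 1 match to the core and 1 to the Sp1 motif. On the minus strand this stretch lies downstream of the first start, and so within the gene as read from there. Tek had no match and Apln 1 to the ETS core and 1 to the Sp1 motif. A match is a description of the letters and not a bound site.

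The ligands of the VEGF family moved in different directions. Vegfa itself read 10.18, 10.06, 10.23 and 9.98 in the weight bearing arrays and 9.66, 9.73, 9.77 and 9.70 in the unloaded arrays. The lowest weight bearing value lay above the highest unloaded one. Vegfa was thus 1.32-fold lower, from 10.11 ± 0.11 to 9.72 ± 0.05 (mean ± SD, n = 4 each), a change of -0.40 ± 0.06 (SE, 95% interval -0.53 to -0.26, limma adjusted p = 0.0014). Vegfb, a relative that binds the receptor of Flt1 and not that of Kdr, was 1.29-fold lower (-0.36 ± 0.05, limma adjusted p = 5.8e-04), with 9.43 to 9.55 in the unloaded and 9.82 to 9.90 in the weight bearing arrays. Vegfd, a ligand known mostly from lymphatic vessels, was higher by 0.49, with 6.72 to 6.87 in weight bearing and 7.18 to 7.35 in unloaded muscle (limma adjusted p = 2.9e-04). Neither Vegfc, the main lymphatic ligand, nor Pgf (placental growth factor, a ligand of Flt1) was called, with changes of -0.23 and 0.15 (limma adjusted p = 0.055 and 0.074). The 5 ligands thus counted 2 lower and 1 higher.

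Among the receptors of this family, Kdr fell and Flt1 was not called. Kdr read 8.36, 8.39, 8.21 and 8.30 in the weight bearing arrays and 7.96, 7.88, 7.73 and 7.81 in the unloaded arrays. All weight bearing values were above all unloaded ones. Its mean went from 8.32 ± 0.08 to 7.85 ± 0.10, which is 1.39-fold lower (-0.47 ± 0.06 SE, 95% interval -0.61 to -0.33, limma adjusted p = 6.6e-04). Flt1 read 8.80, 8.75, 8.87 and 8.81 in weight bearing and 8.87, 8.81, 8.82 and 8.81 in unloaded muscle. These values overlapped throughout, and the change of 0.02 had a 95% interval of -0.08 to 0.12, so that Flt1 in unloaded muscle was between 94.5% and 108.7% of its weight bearing level. Within each array, the log2 difference between Kdr and Flt1 shifted by -0.49 with unloading, and the groups did not overlap. The pair was looked at with both changes known, so this is given as a description only.

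Nrp1, encoding neuropilin-1, a co-receptor that strengthens binding of Vegfa to the receptor of Kdr, was 1.41-fold lower, from between 9.10 and 9.27 to between 8.60 and 8.79 (-0.50 ± 0.06 SE, limma adjusted p = 2.8e-04). Nrp2, the second neuropilin, and Flt4, the lymphatic receptor of the family, were not called, with changes of -0.15 and 0.03 (limma adjusted p = 0.080 and 0.76). Of the 5 receptors and co-receptors, 2 were lower and 0 higher by limma (3 and 0 with p under 0.05 left unadjusted, and 2 and 0 in the methods' t-test). Neuropilin-1 is not particular to endothelium and is also made by fibroblasts.

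**Figure D2:**
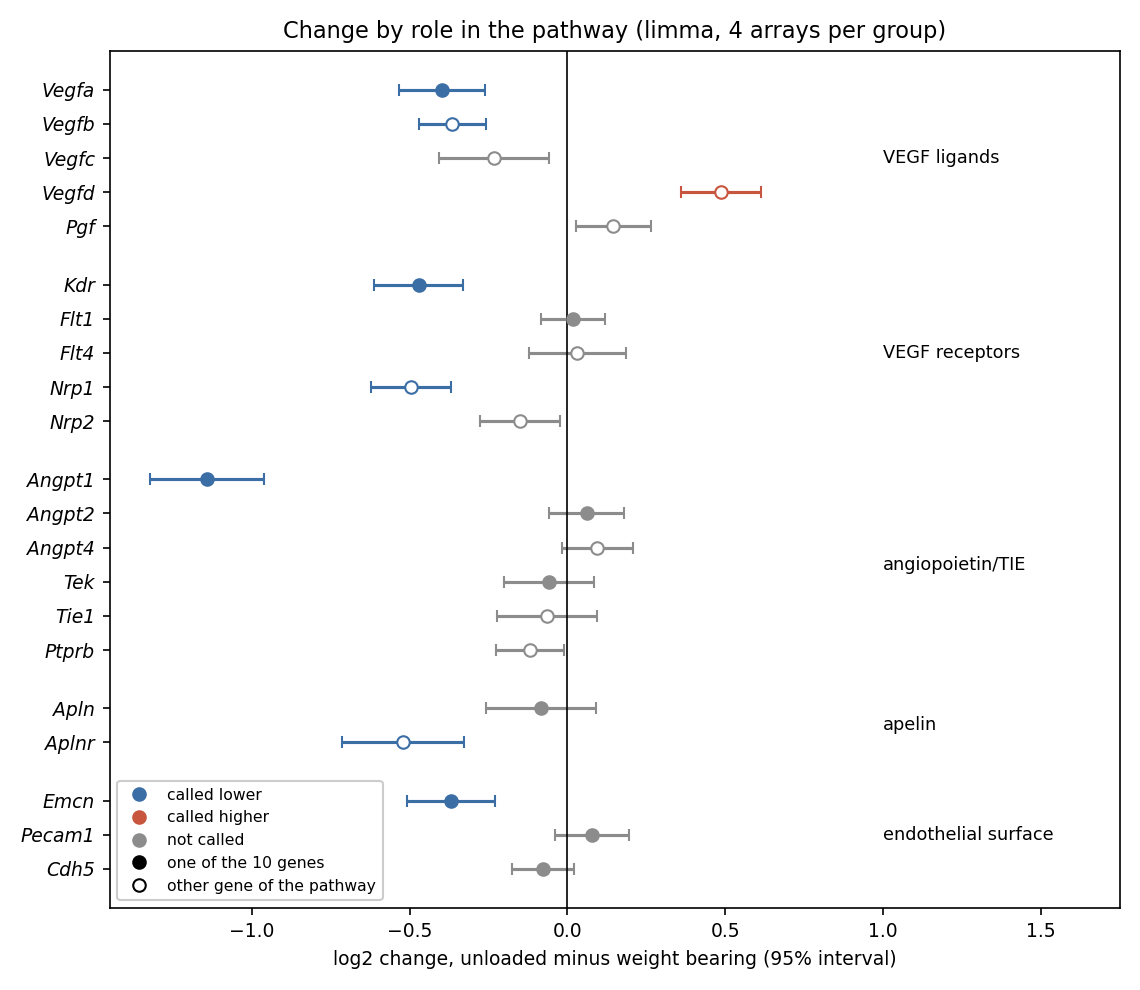
Log2 change (unloaded minus weight bearing, horizontal axis, with 95% interval) of the 10 genes (filled) and of other genes of the same pathways (open), ordered by role. Blue was called lower, red higher and grey not called (limma, 4 arrays per group). Angpt1 lies farthest from 0 at -1.14, and Vegfd is the only gene drawn that was called higher.

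Angpt1 had the largest change of the 10 genes. It read 6.75, 6.77, 6.92 and 6.53 in the weight bearing arrays and 5.72, 5.59, 5.59 and 5.49 in the unloaded arrays. The gap between the groups, from 5.72 to 6.53, was wider than the range of either group. The mean went from 6.74 ± 0.16 to 5.60 ± 0.09, 2.21-fold lower (-1.14 ± 0.08 SE, 95% interval -1.32 to -0.96, limma adjusted p = 1.7e-05). Angpt2 read 5.57, 5.55, 5.50 and 5.66 in weight bearing and 5.68, 5.70, 5.56 and 5.59 in unloaded muscle. These overlapped, and its change of 0.06 (95% interval -0.06 to 0.18, limma adjusted p = 0.43) was within the spread between arrays. Angpt2 in every array and Angpt1 in the unloaded arrays lay not far above the 5.17 level named above, which limits how closely either change is sized. The log2 difference between Angpt1 and Angpt2 within an array shifted by -1.202, with no overlap between the groups, again as a description.

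Their receptor Tek read 8.99, 8.92, 8.70 and 8.84 in weight bearing and 8.85, 8.78, 8.77 and 8.82 in unloaded muscle. The unloaded values lay within the weight bearing range. The change was -0.06 ± 0.06 (SE, 95% interval -0.20 to 0.08, limma adjusted p = 0.53), which bounds unloaded Tek between 86.9% and 105.9% of the weight bearing level. Angpt4 (a further angiopoietin), Tie1 (the partner receptor of Tek) and Ptprb (the phosphatase that acts on Tek) changed by 0.09, -0.06 and -0.12, and none was called (limma adjusted p = 0.20, 0.54 and 0.099). Angpt1 was therefore the single call among 6 genes of the angiopoietin and TIE pathway.

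The angiopoietin-like genes encode secreted proteins of related structure that do not bind Tek. Of 6 measured, 3 were lower and 1 higher (limma). Angptl4, an inhibitor of lipoprotein lipase made in fasted muscle and fat, was 2.86-fold lower, with 7.77, 7.45, 7.33 and 6.18 in weight bearing and 5.63, 5.72, 5.30 and 6.02 in unloaded muscle. The fourth weight bearing array lay close to the unloaded ones, and the groups stayed apart by 6.02 against 6.18 (limma adjusted p = 0.0046). Angptl2 and Angptl1 were 1.46-fold and 1.42-fold lower (limma adjusted p = 0.0018 and 0.0033). Angptl7 was 1.46-fold higher (limma adjusted p = 0.019), with overlapping groups. Its call was lost without unloaded replicate 2 or 4 or without weight bearing replicate 2 (adjusted p = 0.053, 0.053 and 0.051). By the methods' t-test the count was 1 lower and 0 higher.

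Apelin and its receptor differed in their calls. Apln read 5.92, 6.04, 5.90 and 5.95 in weight bearing and 5.88, 5.69, 6.08 and 5.82 in unloaded muscle. The third unloaded array held the highest and the second the lowest value of all 8, and the change of -0.08 (95% interval -0.26 to 0.09, limma adjusted p = 0.46) was smaller than the SD of the unloaded arrays, 0.17. Aplnr, the apelin receptor of endothelial cells, was 1.43-fold lower, with 7.79, 7.67, 7.41 and 7.55 in weight bearing and 7.01, 6.97, 7.24 and 7.12 in unloaded muscle (-0.52 ± 0.09 SE, limma adjusted p = 0.0023). All weight bearing values of Aplnr were above all unloaded ones.

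The 3 endothelial surface genes differed in the size and direction of their changes, and Emcn alone was called. Emcn read 9.73, 9.87, 9.60 and 9.64 in weight bearing and 9.40, 9.34, 9.31 and 9.32 in unloaded muscle, with no overlap. It was 1.29-fold lower, from 9.71 ± 0.12 to 9.34 ± 0.04 (-0.37 ± 0.06 SE, 95% interval -0.51 to -0.23, limma adjusted p = 0.0026). Pecam1 read 8.66, 8.70, 8.60 and 8.61 in weight bearing and 8.83, 8.72, 8.67 and 8.66 in unloaded muscle. The groups overlapped slightly and the unloaded mean was the higher one, with a change of 0.08 (95% interval -0.04 to 0.20, limma adjusted p = 0.30). Cdh5 read 10.041, 10.115, 10.004 and 10.028 in weight bearing and 9.977, 9.965, 9.986 and 9.950 in unloaded muscle. Here the unloaded values were all below the weight bearing ones, but by 0.02 at the nearest, and the change of -0.08 ± 0.04 (SE, 95% interval -0.18 to 0.02) was not called (limma adjusted p = 0.23). Cdh5 in unloaded muscle was thus between 88.5% and 101.5% of its weight bearing level. Within an array, the log2 differences of Emcn and of Kdr to Cdh5 shifted by -0.29 and -0.39, each without overlap. These pairs too were looked at with the changes known, so the shifts are a description only.

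A further 32 genes known to mark endothelium were all measured. Of these, 5 were lower, 2 higher and 25 not called (limma), beside 11.0% lower and 12.8% higher of all probe sets. A negative change was found in 24, beside 8189 of all 21212 probe sets. The median was -0.07 beside 0.04 for all probe sets, or 0.006 for all without the dimmest 50%. With those left out, 8 of the markers were lower and 2 higher, beside 2328 and 2206 probe sets. Cd34, a sialomucin of capillary endothelium that muscle fibroblasts and stem cells also carry, was 1.38-fold lower (limma adjusted p = 1.9e-04). Its values were 10.26 to 10.35 in weight bearing and 9.77 to 9.93 in unloaded muscle. Cd93, a lectin-like receptor of endothelium that myeloid cells also carry, was 1.26-fold lower (limma adjusted p = 0.0024). Mmrn2 (a matrix protein of vessels that binds CD93), Eng (endoglin, a co-receptor of transforming growth factor) and Adgrl4 (an adhesion receptor of endothelium) were between 1.14-fold and 1.17-fold lower. Higher were the transcription factors of endothelial development Sox18 (1.29-fold) and Sox7 (1.23-fold, limma adjusted p = 0.013 and 0.022). Sox7 overlapped between the groups and lost its call without unloaded replicate 3 or 4 or weight bearing replicate 1 or 2.

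The other 25 markers ranged from -0.25 (S1pr1, a lipid receptor, limma adjusted p = 0.056) to 0.19 (Cldn5, a tight junction protein, limma adjusted p = 0.22). Gpihbp1, which anchors lipoprotein lipase to capillaries, changed by -0.18 with groups that did not overlap (limma adjusted p = 0.054). Nearer 0 were Erg at -0.02, Vwf at -0.04 and Icam2 at 0.04. The count of 5 lower markers became 3 without unloaded replicate 3 or weight bearing replicate 1 or 2, 2 by the methods' t-test and 7 by the same test with Storey q-values. Mmrn2 lost its call without unloaded replicate 3 or 4 or weight bearing replicate 1 or 2, and Adgrl4 without unloaded replicate 2 or 3 or weight bearing replicate 1, 2 or 3 and with the replicate number as a block (adjusted p = 0.068). The falls of Kdr and Aplnr were larger than that of any of the 32 markers, and that of Emcn was exceeded only by Cd34. Some of these ranks rest on small differences. Cd34 (-0.46 ± 0.05 SE) lay close to Kdr (-0.47), and Cd93 (-0.34 ± 0.06 SE) close to Emcn (-0.37). Cdh5, Tek, Flt1 and Pecam1 lay within the range of the markers that were not called.

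**Figure D3:**
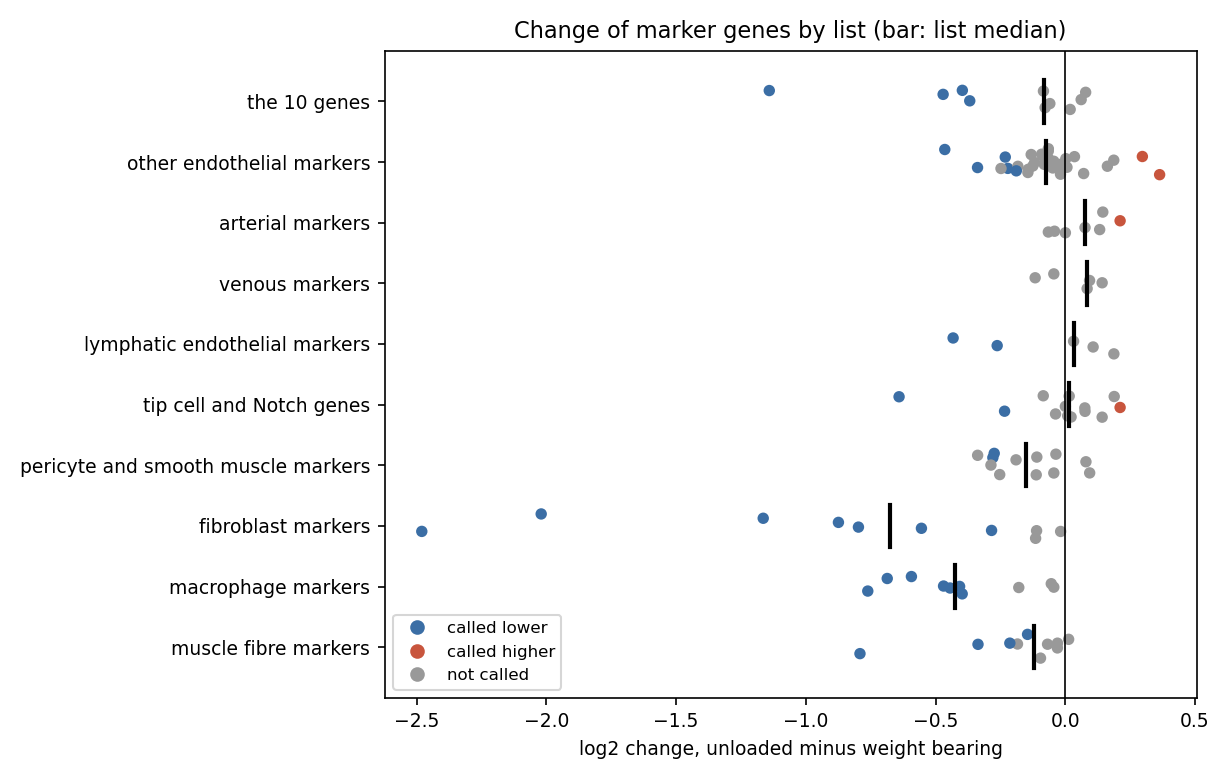
Log2 change (unloaded minus weight bearing, horizontal axis) of each measured gene in 10 lists, the first being the 10 genes described here. Black bars are list medians, blue was called lower, red higher and grey not called. Endothelial, arterial and venous markers cluster near 0, and fibroblast and macrophage markers have medians of -0.68 and -0.43.

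Genes of sprouting and of the Notch pathway, which sets tip against stalk cells in a growing vessel, mostly did not pass the test. Of 13, 2 were lower and 1 higher, beside 11.0% and 12.8% of all probe sets. Nrarp, a Notch target that limits Notch signalling, was 1.56-fold lower, from between 6.41 and 6.67 to between 5.68 and 5.97 (limma adjusted p = 4.0e-04). Notch4, the endothelial Notch receptor, was 1.18-fold lower (limma adjusted p = 0.010). Dll4, the Notch ligand of tip cells, changed by 0.19 and was not called (limma adjusted p = 0.074). Efnb2, an arterial ephrin, was 1.16-fold higher (limma adjusted p = 0.044), and was the single call among 7 arterial markers. Its call was lost without unloaded replicate 1, 3 or 4 or weight bearing replicate 3 or 4, and by the methods' t-test (adjusted p = 0.10). Without unloaded replicate 2, the 13 genes held 2 higher calls.

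Of 5 venous markers 0 were called in either direction, whether by limma or by the methods' t-test, while without adjustment 1 was higher at p under 0.05, with Ephb4 (the receptor of the arterial ephrin) at 0.14 and Nr2f2 (a factor of venous identity) at 0.09. Without weight bearing replicate 4, 1 venous marker was called higher. Of 5 lymphatic markers 2 were lower, Lyve1 with a change of -0.43 and Pdpn with one of -0.26 (limma adjusted p = 0.0023 and 0.022). Lyve1 is also made by resident macrophages and Pdpn by fibroblasts. Prox1, the factor that defines lymphatic endothelium, changed by 0.19, Flt4 by 0.03 and Mmrn1 by 0.11, none of them called. Pdpn lost its call without unloaded replicate 2 or 4 or weight bearing replicate 1 or 2.

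Cells that wrap the vessels were examined because Angpt1 is made there. Of 12 markers of pericytes and smooth muscle, 2 were lower and 0 higher (4 and 0 without adjustment of p), with a median of -0.15 and 10 negative changes. Cspg4, a proteoglycan of pericytes, was 1.21-fold lower (limma adjusted p = 0.0052). The other call, Higd1b, lay below the 5.17 level named above, so no fold is given, and without the dimmest 25% of probe sets 1 call was left. Among the 10 not called, the pericyte genes Pdgfrb and Rgs5 changed by 0.09 and -0.04, and the contractile genes of smooth muscle Acta2, Tagln, Cnn1 and Myh11 by -0.34, -0.29, -0.25 and -0.19 (limma adjusted p between 0.12 and 0.42). Fibroblast markers were lower in 7 of 10 and higher in 0, with a median of -0.68. Col1a1 and Col1a2, the chains of type I collagen, were 5.58-fold and 4.06-fold lower, Lum 2.24-fold and Pi16 1.83-fold. Dcn and Pdgfra, further fibroblast markers, changed by -0.02 and -0.11 and were not called. The mean log2 level of the fibroblast list was 9.98 to 10.2 in weight bearing and 9.11 to 9.27 in unloaded arrays. Whether fibroblasts had a part in the fall of Angpt1, Nrp1, Cd34 or Pdpn was not tested.

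Among markers of blood and immune cells, mainly those of macrophages were called. Macrophage markers were lower in 7 of 10 and higher in 0 (median -0.43), among them Adgre1 (1.69-fold), Mrc1 (1.61-fold), C1qb (1.51-fold) and C1qc (1.38-fold), while Cd68, a general marker, changed by -0.04. The mean log2 level of the macrophage list was 7.45 to 7.72 in weight bearing and 7.09 to 7.36 in unloaded arrays. Among 8 markers of platelets and leukocytes, Pf4 alone was called, 1.30-fold lower. The other platelet genes Ppbp, Gp9 and Itga2b changed by 0.53, 0.34 and 0.14 and were not called. The median of the 8 was 0.12, with 2 negative changes. Without unloaded replicate 1 this list held 2 lower calls, and without weight bearing replicate 2 it held 1 higher. Of 3 measured red cell markers 0 were called, whether by limma or by the methods' t-test, while without adjustment 1 was higher at p under 0.05, with Alas2 at 0.52 and Slc4a1 at -0.07. Again 1 red cell marker was called higher without unloaded replicate 2 or weight bearing replicate 4. Muscle fibre markers counted 4 lower of 10, led by Myh2 (1.73-fold) and Tnnt1 (1.26-fold), with Mb (1.16-fold) and Acta1 (1.11-fold). The part of these cells in the changes of Cd93, Lyve1 and Vegfa was not tested.

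Genes that control Vegfa in muscle were mostly lower. Of 5 listed, 4 were called lower and 0 higher. Ppargc1a, a coactivator known to raise Vegfa in exercised muscle, was 1.28-fold lower, from between 9.59 and 9.76 to between 9.19 and 9.44 (limma adjusted p = 0.0036). Its relative Ppargc1b was 1.28-fold and their partner receptor Esrra 1.19-fold lower (limma adjusted p = 0.018 and 0.019). Epas1, the hypoxia-inducible factor subunit of endothelium, was 1.13-fold lower with overlapping groups (limma adjusted p = 0.043). Hif1a changed by -0.12 and was not called. Whether these genes had a part in the fall of Vegfa was not tested. Without weight bearing replicate 1 the count was 2 lower, by the methods' t-test 1 and by that test with Storey q-values 4. Esrra lost its call without weight bearing replicate 1 and Epas1 without most of the arrays in turn (adjusted p up to 0.10).

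The wider list of hypoxia-inducible factors and their targets went in both directions, with 7 of 16 higher and 3 lower and a median of 0.15. It shares Epas1 and Hif1a with the list above, and Epas1 is among its lower calls. Egln3, an oxygen-sensing prolyl hydroxylase induced in hypoxia, was 1.55-fold higher, from between 9.38 and 9.69 to between 10.07 and 10.23. Arnt, the partner subunit, was 1.43-fold and Slc2a1, a glucose transporter, 1.35-fold higher. P4ha1, a prolyl hydroxylase of collagen, was 1.90-fold lower (limma adjusted p = 4.6e-06), with 8.91 to 9.04 in weight bearing and 8.02 to 8.11 in unloaded muscle. Adm (adrenomedullin) and Car9 (a carbonic anhydrase) were higher by 1.19-fold and 1.30-fold. Pdk1, a kinase that holds back entry of pyruvate into the mitochondria, was 1.19-fold lower (limma adjusted p = 0.010). The glycolytic enzymes Pgk1 and Ldha changed by -0.17 and -0.11 and were not called. Vegfa, a target of the same factors, was thus lower among targets that moved both ways. By the methods' t-test 3 of the 16 were higher and 3 lower, with Adm and Car9 among the calls lost. Adm also lost its call without unloaded replicate 2 or 4 or weight bearing replicate 1 or 3, and Car9 without unloaded replicate 1, 2 or 3 or weight bearing replicate 2 or 4.

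Other growth factors and inhibitors of vessel growth also included more lower than higher calls. Of 8 other angiogenic growth factors 4 were lower and 1 higher. Cxcl12, a chemokine of stromal cells, and Fgf1, a fibroblast growth factor of muscle, were 1.29-fold and 1.27-fold lower (limma adjusted p = 4.5e-04 and 8.2e-04). Tgfb1 was 1.22-fold lower and Igf1 1.39-fold lower, the latter with the third weight bearing array, at 7.82, among the unloaded values. The call of Igf1 was lost without unloaded replicate 2 or weight bearing replicate 1 or 2 (adjusted p = 0.053, 0.055 and 0.053). Ang (angiogenin) was 1.16-fold higher, and was not called without unloaded replicate 4 or weight bearing replicate 3 or 4. Of 10 inhibitors 4 were lower and 1 higher. Thbs1, thrombospondin-1, which blocks endothelial growth through its receptor on these cells, was 1.65-fold higher, with 8.97 to 9.46 in weight bearing and 9.50 to 10.18 in unloaded muscle (limma adjusted p = 0.0058). Sema3a, a semaphorin that binds neuropilin-1, was 1.63-fold lower, Serpinf1 (pigment epithelium-derived factor, made by fibroblasts) 1.58-fold, Adamts1 1.54-fold and Spry4 1.45-fold. Both a ligand and an inhibitor of the same neuropilin system, Vegfa and Sema3a, were therefore lower in these arrays.

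Variation between arrays of the same group was also compared. Deviations from the group mean were correlated over the 8 arrays as a description, since the genes share each array and its normalization. Among the 6 endothelial genes Kdr, Tek, Flt1, Emcn, Pecam1 and Cdh5, 11 of 15 pairs had a positive Pearson r, with a median of 0.53. When Flt1 was set aside, a choice made after its values were seen, all 10 pairs had a positive r, between 0.47 and 0.90 with a median of 0.70. Emcn and Cdh5 had the highest (0.90), followed by Kdr and Pecam1 (0.89), in each of which one gene was called and the other not. Flt1 had r between -0.69 and 0.04 against the same 5 genes. Over all 45 pairs of the 10 genes the median was 0.07. Unloaded replicate 1 lay at or above its group mean for all 6 endothelial genes, Flt1 included, by 0.06 on average. Unloaded replicates 3 and 4 and weight bearing replicates 3 and 4 each lay below their group mean for 5 of the 6.

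**Figure D4:**
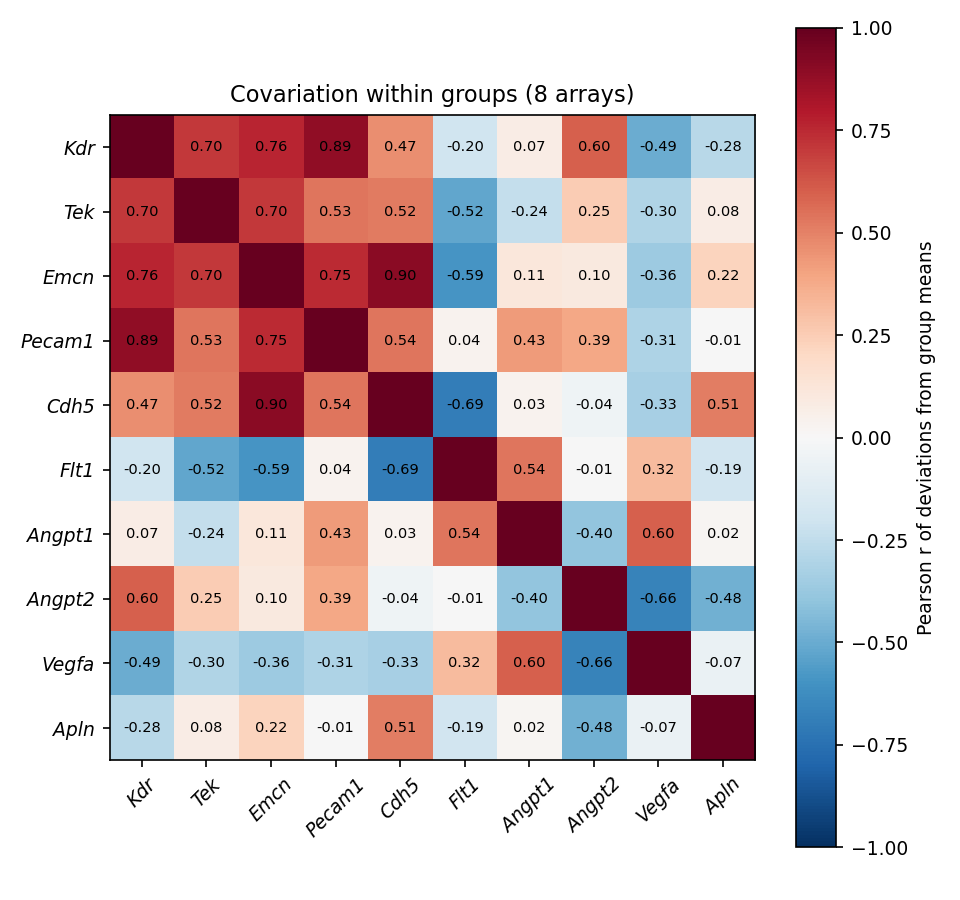
Pearson r of deviations from the group means between pairs of the 10 genes over 8 arrays (colour and printed value). The block of Kdr, Tek, Emcn, Pecam1 and Cdh5 is positive throughout, from 0.47 to 0.90, and Flt1 is negative or near 0 against it.

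Across the 8 arrays as a whole, the named genes with the pattern most like that of Angpt1 were Cdc16 (Pearson r = 0.998) and Lpl (0.995), the lipoprotein lipase that acts at the capillary wall. For Kdr they were Tgfb1i1 (0.993) and Enpp3 (0.993), for Vegfa Efr3b (0.988) and Abhd18 (0.982), and for Emcn Casp8 (0.995) and Arhgdib (0.993). These values largely reflect the shared difference between the groups and were picked from 20703 probe sets with 1 gene symbol. For the 6 genes not called, the best neighbours had r between 0.948 and 0.991.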

How the data were processed

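The authors hybridised total RNA of 8 muscle samples to Affymetrix Mouse Gene 1.0 ST arrays, ran RMA with a custom probe set definition, and deposited the resulting log2 value of each probe set. The procedure subtracts background, makes the distributions of the arrays alike and summarises the probes of a set, so values are relative within the array, carry no detection call and cannot be compared between genes. The submitters' processing notes name RMA. Neither its version nor the release of that definition is stated in the sources used here. The deposited values were used with no further scaling or filter, 0 columns were left unused, and 0 pairs of arrays held identical values.

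Probe sets were named through the platform annotation and RefSeq, which gave 20703 of 21212 exactly 1 symbol. Groups were taken from the labels, 4 arrays each, and this number of arrays limits the precision. The groups were compared by a two-sided limma fit (version 3.58.1, functions lmFit and eBayes, R 4.3.3). Its p-values were adjusted over all probe sets by Benjamini-Hochberg and called under 0.05. Intervals cover 95%. Other steps used Python 3.11.15 with pandas 2.3.3. The script was tested on simulated data. The methods name a parametric t-test (GenePattern, Comparative Marker Selection) with q-values, and the formula of the q-values and the treatment of variances were not found there. It was run with unequal variances, adjusted by Benjamini-Hochberg (meant where no other is named) and by Storey's q-value.

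The 10 genes and 20 lists of related genes and cell type markers (175 genes, 170 measured) were chosen with earlier results of these data known. Beside the 10 genes, the text names for each list up to 4 called genes with the largest change, or the 2 with the smallest p where 0 were called, and the 2 nearest genes by Pearson r. All other genes named were chosen after their values were seen. Not measured here were Apela, Ccl21a, Hba-a1, Hbb-bt and Hbb-bs. Promoters were searched over 250 bases before each start. In total 20 alternatives were run.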

Additional observations from a re-analysis of the deposited data

Results flagged for a closer look

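In groups of 4 arrays, a value was marked when its gap to the nearest other value took up more of the range of its group than Dixon's 95% critical value allows. Chance marks about 1 in 20 groups, and 9 of 124 were marked, 1 of them among the 20 groups of the 10 genes. That one was Flt1 in unloaded replicate 1, which read 8.87 against 8.816 for the nearest array, so the whole range of the group was small. Among genes of related pathways, weight bearing replicate 4 was high for Angptl2 (10.171) and weight bearing replicate 3 low for Angptl1 (7.637). Unloaded replicate 2 was low for Nr2f2 (7.758) and Arnt (10.491). In single genes, unloaded replicate 1 was low for Esrra (7.478), unloaded replicate 4 high for Epas1 (9.894) and unloaded replicate 3 low for Adamts1 (7.786). Weight bearing replicate 3 was low for the macrophage marker C1qc (7.691).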

How the results depend on the processing

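All 4 falls kept their direction and call under every alternative in which the gene was tested, with a highest adjusted p of 0.0466 (Emcn, the methods' t-test). The changes ranged from -1.21 to -1.08 for Angpt1, -0.51 to -0.43 for Kdr, -0.44 to -0.36 for Vegfa and -0.41 to -0.31 for Emcn. The 6 genes not called stayed so, with a lowest adjusted p of 0.0614 (Cdh5, Storey q-values). Leaving out the dimmest 50% of probe sets removed Angpt1, Angpt2 and Apln, so 3 of the remaining genes were lower. Over all probe sets, the methods' t-test with Benjamini-Hochberg adjustment called 1374 lower and 1393 higher, and with Storey q-values 2403 and 3033. Without adjustment of p 3262 were lower and 4669 higher. A change of at least 1.2-fold left 1558 lower and 1244 higher, so that lower calls became the more frequent. With 1 array left out the lower calls ranged from 1833 to 2206 and the higher from 1802 (without unloaded replicate 3, with 1922 lower) to 2852. Replicate numbers are shared by the groups, but the labels do not call same-numbered arrays pairs, and they were not taken as such. Deviations of same-numbered arrays correlated at 0.02 to 0.12. Arrays of different numbers were not compared, so these values cannot decide whether a pairing exists. With the replicate number as a block, 4 of the 10 genes were lower and 0 higher, all probe sets counted 2213 lower and 2455 higher, and Adgrl4, Efnb2, Epas1 and Acta1 were no longer called among the list genes. Of the 52 other genes named by rule, 30 kept their call under all alternatives and 0 reversed. By the methods' t-test 27 calls among the list genes were lost (3 with Storey q-values: Pdpn, Igf1 and Ly6a). Of the genes named by rule these were Angptl1 (adjusted p = 0.0504), Angptl4 (0.0794), Angptl7, Sox18, Sox7, Efnb2, Pdpn, Slc2a1, Ppargc1b, Esrra, Epas1, Igf1, Tgfb1, Thbs1 (0.0618), Adamts1, Myh2 and Tnnt1, with the highest adjusted p at 0.141 (Igf1), and quantile normalization ended the calls of Epas1, Acta1 and Car9. The cause of the lost calls was not tested. Among the 10 genes the SE was widest for Angpt1 (0.08), so its fall is the least closely sized.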
